A study of Mus musculus with 30 samples.

Results

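Calcineurin is a calcium-activated protein phosphatase, and the genes described here are those of its subunits, its RCAN inhibitors and the NFAT transcription factors it acts on. The members were 10 genes listed by symbol, and all 10 were found among the 56980 genes of the count table, each with 1 Ensembl identifier. They were the regulators of calcineurin Rcan1 (ENSMUSG00000022951), Rcan2 (ENSMUSG00000039601) and Rcan3 (ENSMUSG00000059713), the transcription factors Nfatc1 (ENSMUSG00000033016), Nfatc2 (ENSMUSG00000027544), Nfatc3 (ENSMUSG00000031902) and Nfatc4 (ENSMUSG00000023411), and the calcineurin subunits Ppp3ca (ENSMUSG00000028161), Ppp3cb (ENSMUSG00000021816) and Ppp3r1 (ENSMUSG00000033953). All 10 passed the filter on low counts and were among the 16932 genes tested. The list was chosen by pathway with the CPM of the 4 groups in view, Rcan1 above all, so that the members' differences between those groups are a description of these mice, and the adjusted p-values printed with them place each gene within the fit over all genes and are not independent tests. Sex was not used in the choice.

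RNA of the soleus, a calf muscle rich in slow fibres, was sequenced from 30 C57BL/6J mice aged 3 to 4 months. Muscle-specific AMPKalpha1 alpha2 double knockouts (mKO) and floxed controls without Cre (Ctrl) were unloaded by the hindlimbs (HU) or left ambulatory (AMB) for 4 weeks. There were 8 HU mKO mice (3 male, 5 female), 7 HU Ctrl mice (4 male, 3 female), 7 AMB mKO mice (5 male, 2 female) and 8 AMB Ctrl mice (3 male, 5 female). The controls of both loading states carried the floxed alleles of both genes, and the labels do not name the promoter that drove Cre.

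The libraries held between 12.1 and 20.9 M counts each. The knocked-out Prkaa2, which encodes AMPKalpha2, lay between 56.0 and 112 CPM (counts scaled to a library of 1 M counts, normalised between libraries by TMM) in HU mKO soleus against 130 to 346 CPM in HU Ctrl soleus, and between 15.0 and 85.1 CPM in AMB mKO soleus against 170 to 258 CPM in AMB Ctrl soleus, with no overlap in either pair. Prkaa1, for AMPKalpha1, passed the test over all genes in neither pair (log2 change -0.60 ± 0.18 SE in HU mice and -0.20 ± 0.18 in AMB mice). Its unadjusted edgeR p was 0.00239 in HU mice and 0.278 in AMB mice. Its highest AMB mKO value, 36.2 CPM, was that of replicate 2. Without that library the change in AMB mice was -0.51 ± 0.16, which did not pass either (edgeR adjusted p = 0.99992, unadjusted p = 0.00337). Whole muscle also holds cells that the muscle-specific deletion leaves intact. One library stood apart: in AMB mKO replicate 2, a female, the 10 slow fibre markers summed to 523 CPM against at least 11800 CPM in each of the other 29 libraries, and its 10 adipocyte markers summed to 12305 CPM. Main results that this library moves are given with and without it. HU mKO replicates 2 and 3 were the next richest in adipocyte transcripts. In bulk muscle RNA, fewer cells of a type and less RNA per cell cannot be told apart.

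Calcineurin consists of a catalytic A subunit, encoded by Ppp3ca or Ppp3cb in muscle, and a calcium-binding B subunit, encoded by Ppp3r1. When calcium-loaded calmodulin activates it, calcineurin removes phosphates from NFATc proteins, which then enter the nucleus and bind DNA with the core GGAAA. In skeletal muscle the pathway is known for its part in the slow fibre programme of tonically active muscles. Rcan1 encodes an inhibitor of calcineurin, and its shorter isoform is transcribed from an internal start whose upstream region NFAT is known to bind, so that its transcript is widely used as a readout of calcineurin signalling. The counts are summed per gene and do not separate the isoforms, and they hold neither enzyme activity nor the location of NFAT proteins.

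The windows upstream of the starts of Rcan1 and of the first Rcan2 start are shown because these are the members whose transcripts were lower after unloading. Each is the 250 bases before a RefSeq gene start on GRCm38.p6, written 5′ to 3′ on the strand of the gene, and capitals mark each GGAAA or its reverse complement TTTCC. Both strands were searched, and occurrences were allowed to overlap. The authors counted on GRCm39, so the positions are those of the earlier build.
Rcan1, first start, chr16:92466170-92466419, minus strand: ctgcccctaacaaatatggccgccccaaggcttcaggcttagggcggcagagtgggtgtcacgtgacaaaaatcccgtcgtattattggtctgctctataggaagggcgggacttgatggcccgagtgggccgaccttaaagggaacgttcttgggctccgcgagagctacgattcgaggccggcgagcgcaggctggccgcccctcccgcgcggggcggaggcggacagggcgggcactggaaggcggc
Rcan1, internal start, chr16:92400079-92400328, minus strand: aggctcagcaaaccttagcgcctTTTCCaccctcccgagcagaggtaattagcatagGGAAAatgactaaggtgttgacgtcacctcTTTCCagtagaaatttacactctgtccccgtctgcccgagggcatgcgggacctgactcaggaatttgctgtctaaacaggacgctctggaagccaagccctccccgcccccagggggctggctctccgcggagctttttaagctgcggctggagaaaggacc
Rcan2, first start, chr17:43801102-43801351, plus strand: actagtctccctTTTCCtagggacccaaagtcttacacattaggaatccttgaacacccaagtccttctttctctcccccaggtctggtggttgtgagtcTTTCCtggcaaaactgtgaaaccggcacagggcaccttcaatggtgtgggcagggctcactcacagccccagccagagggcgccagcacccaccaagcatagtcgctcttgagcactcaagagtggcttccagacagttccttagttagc
The window before the first Rcan1 start held 0 cores, and that before the internal start held 3, 1 as GGAAA and 2 as TTTCC. The first Rcan2 window held 2, both as TTTCC, and the windows of the other 2 Rcan2 starts held 0. Of 32851 windows of the same length before RefSeq starts, 55.6% held at least 1 core, 21.4% at least 2 and 6.39% at least 3. RefSeq windows matched 8 of the 10 members. Among the others, the first Nfatc2 window, the Nfatc4 window and the Ppp3cb window held 3 each, and the Ppp3r1 window held 0. A match of 5 letters is a description and not a binding site.

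Rcan1 was the member that differed most with loading. It was 5.95-fold lower in HU Ctrl than in AMB Ctrl soleus and 3.61-fold lower in HU mKO than in AMB mKO soleus, while Rcan2 was lower by less and Rcan3 lay at a similar level in all 4 groups. Among the calcineurin subunits, Ppp3ca was 1.46-fold higher in unloaded mice over both genotypes. None of the 4 NFATc genes passed the test in any comparison. AMPK genotype went with no called change in any of the 10 genes, in either loading state.

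The lowest, median and highest Rcan1 values were 44.3, 55.6 and 113 CPM in HU mKO soleus and 33.4, 45.0 and 72.6 CPM in HU Ctrl soleus. They were 27.1, 270 and 371 CPM in AMB mKO soleus and 174, 310 and 347 CPM in AMB Ctrl soleus. Every HU Ctrl mouse was below every AMB Ctrl mouse. In the mKO mice the groups overlapped through AMB mKO replicate 2 alone, at 27.1 CPM. The other 6 AMB mKO mice lay between 205 and 371 CPM, above all 8 HU mKO mice. Of the HU mKO mice, replicate 7 was the highest at 113 CPM, and the next was at 66.1 CPM.

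The Rcan1 mean was 61.4 ± 22.1 CPM (SD, n = 8) in HU mKO and 240 ± 107 CPM (n = 7) in AMB mKO soleus. It was 48.8 ± 13.0 CPM (n = 7) in HU Ctrl and 278 ± 67.6 CPM (n = 8) in AMB Ctrl soleus. The log2 change with unloading was -1.85 ± 0.32 (SE) in mKO mice (adjusted p = 0.000713, edgeR quasi-likelihood test) and -2.57 ± 0.32 in Ctrl mice (adjusted p = 2.39e-05). Without AMB mKO replicate 2 the change in mKO mice was -2.11 (adjusted p = 2.09e-07). The difference between these changes was 0.72 ± 0.45 (unadjusted p = 0.118, adjusted p = 0.999), and without that library it was 0.41 ± 0.29, so neither fit shows that the response differed by genotype or that it was alike.

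Sample titles end in a letter a, b or c that the labels do not explain, so the Rcan1 difference was also taken within letters. Averaged over the genotypes, unloaded minus ambulatory log2 CPM was -2.12 in letter a, -2.46 in letter b and -1.72 in letter c. Letter c holds AMB mKO replicate 2, and without it the mKO difference there was -2.34 in place of -0.68. Within the AMB Ctrl group Rcan1 ran from 174 to 216 CPM in the 3 letter a mice, from 326 to 328 CPM in the 2 letter b mice and from 295 to 347 CPM in the 3 letter c mice.

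Rcan2, which encodes a related regulator of calcineurin, had lowest, median and highest values of 46.5, 77.5 and 120 CPM in HU mKO soleus and 54.6, 73.0 and 98.5 CPM in HU Ctrl soleus. In AMB mKO soleus they were 12.7, 132 and 139 CPM, and in AMB Ctrl soleus 93.7, 120 and 155 CPM. All 15 unloaded mice lay below the ambulatory median of 122 CPM, but the groups overlapped in both genotypes. The log2 change with unloading was -0.55 ± 0.20 over both genotypes (adjusted p = 0.0370), -0.35 ± 0.29 in mKO mice (adjusted p = 0.454) and -0.74 ± 0.28 in Ctrl mice (adjusted p = 0.0836). Without AMB mKO replicate 2, Rcan2 passed in each of them, at -0.66 over both genotypes, -0.61 in mKO mice (adjusted p = 0.0241) and -0.70 in Ctrl mice (adjusted p = 0.00482). The call over both genotypes was lost without a filter on low counts (adjusted p = 0.0729).

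Within letters, the Rcan2 difference averaged over the genotypes was -0.61 in letter a, -0.62 in letter b and -0.05 in letter c. In letter c without AMB mKO replicate 2 it was -1.25 for mKO mice, with 1 AMB mKO mouse left, and -0.54 for Ctrl mice. Rcan2 moved with the 10 slow fibre markers, none of which was at 0 throughout a group. Their sum ran from 11913 to 37969 CPM (median 17832) in HU mKO and from 523 to 40209 CPM (median 25966) in AMB mKO soleus. It ran from 11800 to 30985 CPM (median 23844) in HU Ctrl and from 18082 to 44486 CPM (median 30762) in AMB Ctrl soleus, with overlap in both genotypes. Over the 30 libraries the correlation of Rcan2 with that sum on the log2 scale was r = 0.880 (rho = 0.721). Without AMB mKO replicate 2 it was r = 0.716. Within groups it was 0.836 in HU mKO, 0.637 in HU Ctrl and 0.269 in AMB Ctrl mice, and in AMB mKO mice it was 0.962 with replicate 2 and -0.31 without it. The part of fibre composition in the Rcan2 difference was not tested.

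Rcan1 moved with the same slow fibre sum at r = 0.552 over the 30 libraries (0.654 without AMB mKO replicate 2). Within groups r was 0.795 in HU mKO, 0.394 in HU Ctrl and -0.07 in AMB Ctrl mice, and in AMB mKO mice it was 0.991 with replicate 2 and 0.750 without it. By rank, rho was 0.381 in HU mKO, 0.286 in HU Ctrl, -0.24 in AMB Ctrl and 0.857 in AMB mKO mice, with replicate 2 kept. HU mKO replicate 7 was the highest of its group in both Rcan1 (113 CPM) and the slow fibre sum (37969 CPM). Rcan1 also moved with 10 endothelial markers, r = 0.636 over the 30 libraries (0.616 without AMB mKO replicate 2). Within groups that correlation was -0.03 in HU mKO, -0.0031 in HU Ctrl and -0.18 in AMB Ctrl mice, and in AMB mKO mice 0.916 with replicate 2 and -0.03 without it. The endothelial sum ran from 428 to 623 CPM (median 460) in HU mKO and from 448 to 597 CPM (median 566) in AMB mKO soleus. It ran from 435 to 587 CPM (median 448) in HU Ctrl and from 506 to 774 CPM (median 597) in AMB Ctrl soleus. None of the 10 markers was at 0 throughout a group. Over both genotypes 4 of them were called lower with unloading, with and without that library: Kdr and Flt1, for receptors of vascular endothelial growth factor (-0.96 ± 0.12 and -0.33 ± 0.11), Tie1 (-0.56 ± 0.12) and Emcn (-0.38 ± 0.13). Among all genes tested, 14.3% were called lower in that comparison with the library kept. Called or not, 8 of the 10 markers were lower and 2 higher over both genotypes (median log2 change -0.20). In Ctrl mice 8 were lower and 2 higher (median -0.35), and in mKO mice 5 were lower and 5 higher (median -0.08). The part of fibre composition or of endothelial transcripts in the Rcan1 difference was not tested.

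Rcan3, the third gene of the family, averaged 8.72 ± 1.00 CPM in HU mKO, 9.57 ± 1.07 CPM in HU Ctrl, 9.56 ± 1.80 CPM in AMB mKO and 9.88 ± 1.55 CPM in AMB Ctrl soleus. The 4 ranges overlapped, between 7.40 and 12.6 CPM in all. Its log2 change with unloading over both genotypes was -0.09 ± 0.09, close to the median of all genes tested, -0.01.

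**Figure D1:**
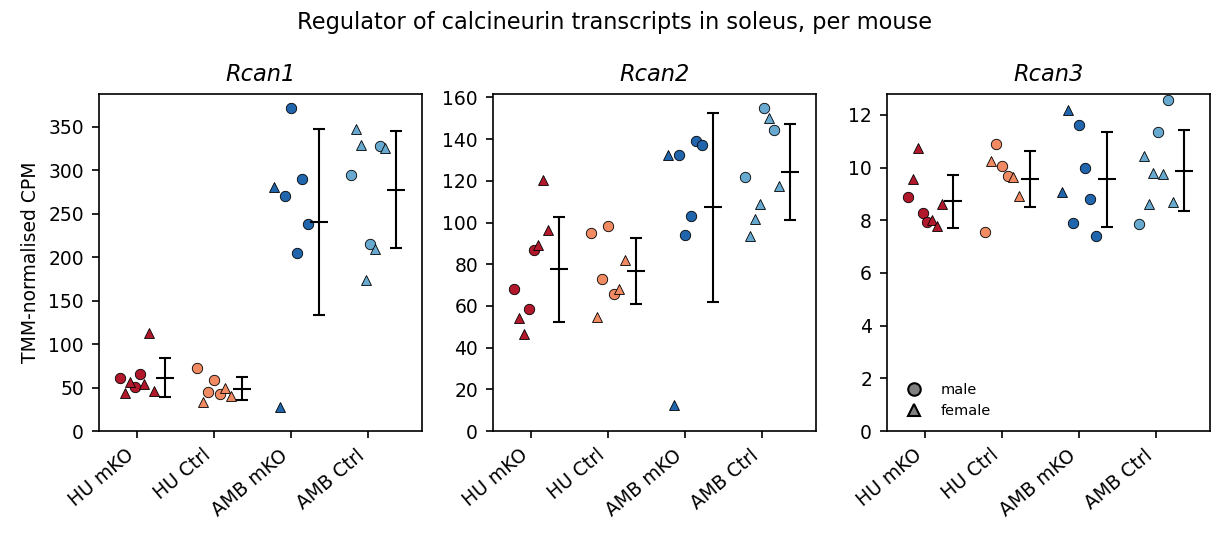
TMM-normalised CPM of Rcan1, Rcan2 and Rcan3 (linear axes from 0) in each mouse of the 4 groups, with males as circles and females as triangles; the bars beside the points are the mean ± SD. All Rcan1 points of HU mice lie at or below 113 CPM, all but 1 point of AMB mice lie at or above 174 CPM, and the lone low AMB mKO point is replicate 2.

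The catalytic subunit gene Ppp3ca had lowest, median and highest values of 101, 156 and 264 CPM in HU mKO soleus and 70.5, 153 and 196 CPM in HU Ctrl soleus. In AMB mKO soleus they were 45.0, 122 and 137 CPM, and in AMB Ctrl soleus 72.6, 104 and 119 CPM. The groups overlapped, with 5 of 8 HU mKO mice above the highest AMB mKO mouse and 4 of 7 HU Ctrl mice above the highest AMB Ctrl mouse. Over both genotypes the log2 change was 0.54 ± 0.17 (1.46-fold, adjusted p = 0.0199). Ppp3ca passed in neither genotype alone, at 0.60 ± 0.26 in mKO mice (adjusted p = 0.132) and 0.49 ± 0.25 in Ctrl mice (adjusted p = 0.203). Within letters the mean difference was 0.63 in a, 0.76 in b and 0.30 in c. In letter c it was 0.01 for Ctrl mice and, without AMB mKO replicate 2, -0.09 for mKO mice.

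Ppp3cb, the other catalytic subunit gene, averaged 118 ± 27.6 CPM in HU mKO, 115 ± 22.5 CPM in HU Ctrl, 97.3 ± 32.7 CPM in AMB mKO and 93.2 ± 13.9 CPM in AMB Ctrl soleus. Without replicate 2 its AMB mKO mean was 106 ± 24.3 CPM. Its log2 change over both genotypes, 0.30 ± 0.13, did not pass (adjusted p = 0.0885), and it did pass with the title letter in the model (adjusted p = 0.0323) and without the 3 adipocyte-rich libraries (adjusted p = 0.0423). Ppp3r1, for the regulatory B subunit, averaged 59.6 ± 13.9 CPM in HU mKO, 55.8 ± 11.1 CPM in HU Ctrl, 52.5 ± 14.0 CPM in AMB mKO and 52.4 ± 4.97 CPM in AMB Ctrl soleus. Its log2 change was 0.13 ± 0.11 (adjusted p = 0.421), so no difference was detectable beyond the spread between mice. The ratio of Ppp3ca to Ppp3cb counts was 1.40 ± 0.25 in HU mKO, 1.20 ± 0.29 in HU Ctrl, 1.20 ± 0.32 in AMB mKO and 1.08 ± 0.13 in AMB Ctrl soleus, with overlapping ranges.

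The subunit genes moved with the fast fibre markers. The sum of the 11 markers, among them the myosin genes Myh1 and Myh4 and none at 0 throughout a group, ran from 21250 to 103803 CPM (median 49816) in HU mKO and from 3261 to 35253 CPM (median 31503) in AMB mKO soleus. It ran from 16667 to 72220 CPM (median 56949) in HU Ctrl and from 11875 to 39462 CPM (median 19995) in AMB Ctrl soleus, so that the groups overlapped. On the log2 scale over 30 libraries, the correlation with that sum was r = 0.933 for Ppp3ca (rho = 0.894), 0.896 for Ppp3cb (rho = 0.875) and 0.732 for Ppp3r1 (rho = 0.721). Without AMB mKO replicate 2 the 3 values of r were 0.918, 0.837 and 0.659, in that order. Within groups the Ppp3ca correlation was 0.959 in HU mKO, 0.948 in HU Ctrl, 0.989 in AMB mKO (0.779 without replicate 2) and 0.759 in AMB Ctrl mice. Mice with more fast fibre transcripts thus tended to have more Ppp3ca in each group, least closely in AMB Ctrl mice (rho = 0.619). For Ppp3r1 the correlation was 0.901 in HU mKO, 0.894 in HU Ctrl, 0.679 in AMB mKO (0.578 without replicate 2) and 0.401 in AMB Ctrl mice. These values share their libraries and their normalisation, and the part of fibre composition in the Ppp3ca difference was not tested. Ppp3cb and Ppp3r1, an A and a B subunit gene, had the highest correlation of the 45 pairs of members, r = 0.892.

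**Figure D2:**
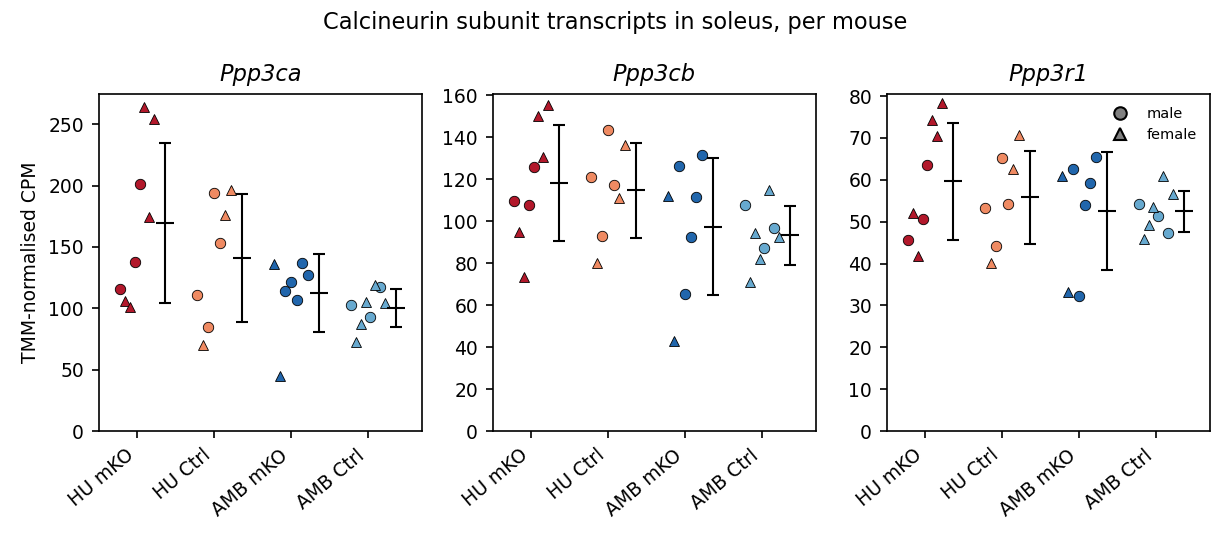
TMM-normalised CPM of the calcineurin subunit genes Ppp3ca, Ppp3cb and Ppp3r1 (linear axes from 0) in each mouse, with males as circles, females as triangles and bars for the mean ± SD. The HU points of Ppp3ca spread from 70.5 to 264 CPM and overlap the AMB points.

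**Figure D3:**
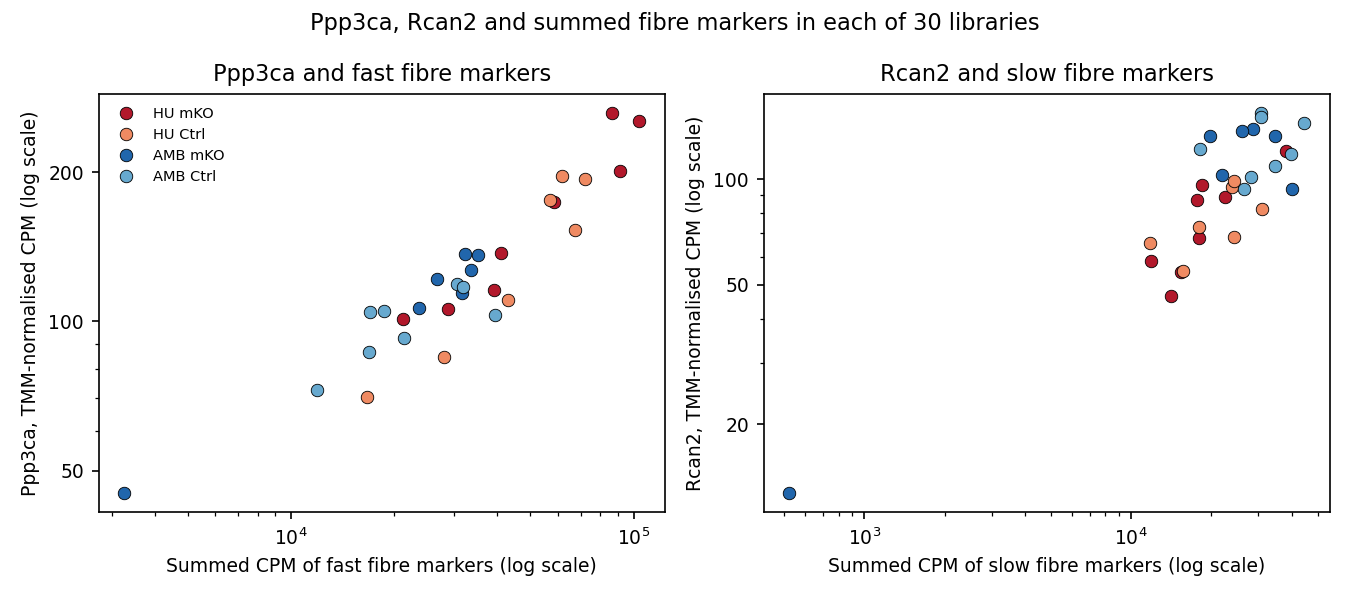
Each point is 1 of the 30 libraries, on log axes: Ppp3ca against the summed CPM of 11 fast fibre markers, and Rcan2 against the summed CPM of 10 slow fibre markers. Ppp3ca rises with the fast fibre sum over the 30 libraries (r = 0.933), least closely within AMB Ctrl mice (r = 0.759). The point at the far lower left of both panels is AMB mKO replicate 2.

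The 4 NFATc genes, which encode the factors that calcineurin dephosphorylates, were called in no comparison, and their groups overlapped. Nfatc1, whose product is known to act in slow fibres, averaged 65.4 ± 18.1 CPM in HU mKO, 61.6 ± 16.4 CPM in HU Ctrl, 65.4 ± 18.5 CPM in AMB mKO and 68.7 ± 6.20 CPM in AMB Ctrl soleus. Nfatc2 averaged 70.3 ± 22.8 CPM in HU mKO, 67.3 ± 12.2 CPM in HU Ctrl, 60.2 ± 20.0 CPM in AMB mKO and 70.2 ± 9.31 CPM in AMB Ctrl soleus. Without replicate 2 its AMB mKO mean was 67.3 ± 8.23 CPM. Nfatc3 averaged 56.7 ± 5.83 CPM in HU mKO, 54.7 ± 7.03 CPM in HU Ctrl, 56.1 ± 9.35 CPM in AMB mKO and 50.6 ± 4.78 CPM in AMB Ctrl soleus. For these 3 genes the log2 change with unloading over both genotypes was -0.07 ± 0.12, 0.10 ± 0.15 and 0.06 ± 0.07, in that order, and their ranges overlapped in every pair of groups. NFAT factors are also abundant in lymphocytes, and 9 lymphocyte markers summed to between 0.131 and 4.36 CPM in these libraries.

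Nfatc4 had the lowest level of the 4 and the widest relative spread. Its lowest, median and highest values were 4.17, 7.73 and 14.9 CPM in HU mKO soleus and 6.31, 9.06 and 18.7 CPM in HU Ctrl soleus. In AMB mKO soleus they were 6.50, 11.1 and 27.6 CPM, and in AMB Ctrl soleus 7.29, 14.0 and 21.5 CPM. The groups overlapped, and the log2 change over both genotypes, -0.49 ± 0.23, did not pass (adjusted p = 0.104). By genotype it was -0.72 ± 0.33 in mKO mice (edgeR adjusted p = 0.155) and -0.27 ± 0.32 in Ctrl mice (adjusted p = 0.646). Of the 8 HU mKO mice, 3 lay below every AMB mKO mouse. Within letters the difference over both genotypes was -1.41 in a, -0.69 in b and 0.36 in c, so its direction turned between letters. Nfatc4 moved with 6 tenocyte markers, the tendon cell genes Scx, Tnmd, Comp, Chad, Fmod and Thbs4 (r = 0.783 over 30 libraries, between 0.743 and 0.893 within groups). Their sum ran from 107 to 1426 CPM (median 491) in HU mKO and from 59.2 to 2806 CPM (median 835) in AMB mKO soleus. It ran from 100.1 to 2849 CPM (median 1205) in HU Ctrl and from 187 to 2406 CPM (median 1744) in AMB Ctrl soleus. None of the 6 was at 0 throughout a group, and their part in the Nfatc4 values was not tested. Over the 30 libraries Nfatc4 also moved with the endothelial (r = 0.539) and macrophage sums (0.509) and against the fast fibre sum (-0.547). The marker sums named beside members here were picked from 110 pairs of a member and a marker list.

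**Figure D4:**
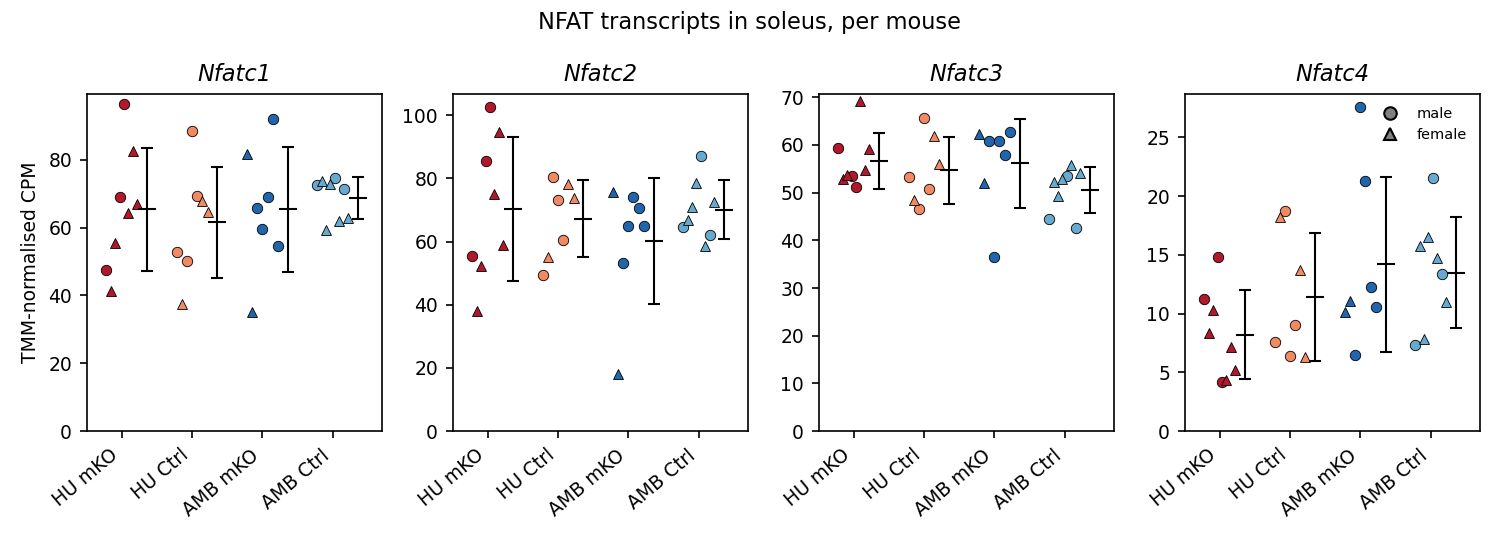
TMM-normalised CPM of Nfatc1, Nfatc2, Nfatc3 and Nfatc4 (linear axes from 0) in each mouse, with males as circles, females as triangles and bars for the mean ± SD. The 4 groups overlap for every gene, and the lowest Nfatc2 point, at 18.1 CPM, is AMB mKO replicate 2.

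Over both genotypes, 1 of the 10 members was called higher and 2 lower with unloading, where 28.5% of all genes tested were called, 14.2% higher and 14.3% lower. In Ctrl mice 1 was called, Rcan1, where 11.1% of all genes were (5.74% lower), and in mKO mice 1 was called, again Rcan1, where 10.1% of all genes were (4.75% lower). The median absolute log2 change was 0.22 over the members and 0.25 over all genes tested. In neither loading state was a member called between mKO and Ctrl mice, where 0.0177% of all genes were called in HU mice and 0.0177% in AMB mice, and 0 members had an unadjusted p below 0.05, where 1.78% of all genes did in HU mice and 7.62% in AMB mice. The largest genotype differences among the members had wide errors: in HU mice Nfatc4 at -0.46 ± 0.32 and Rcan1 at 0.40 ± 0.30, and in AMB mice Rcan1 at -0.32 ± 0.31. Both Rcan1 values moved with 1 library: in AMB mice it was -0.05 ± 0.21 without AMB mKO replicate 2, and in HU mice 0.21 ± 0.28 without HU mKO replicate 7. DESeq2 called 0 members there too. The interaction of genotype and unloading called 0 members and 0% of all genes with edgeR and 0 genes with DESeq2, and 2.42% of all genes but 0 members had an unadjusted p below 0.05.

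**Figure D5:**
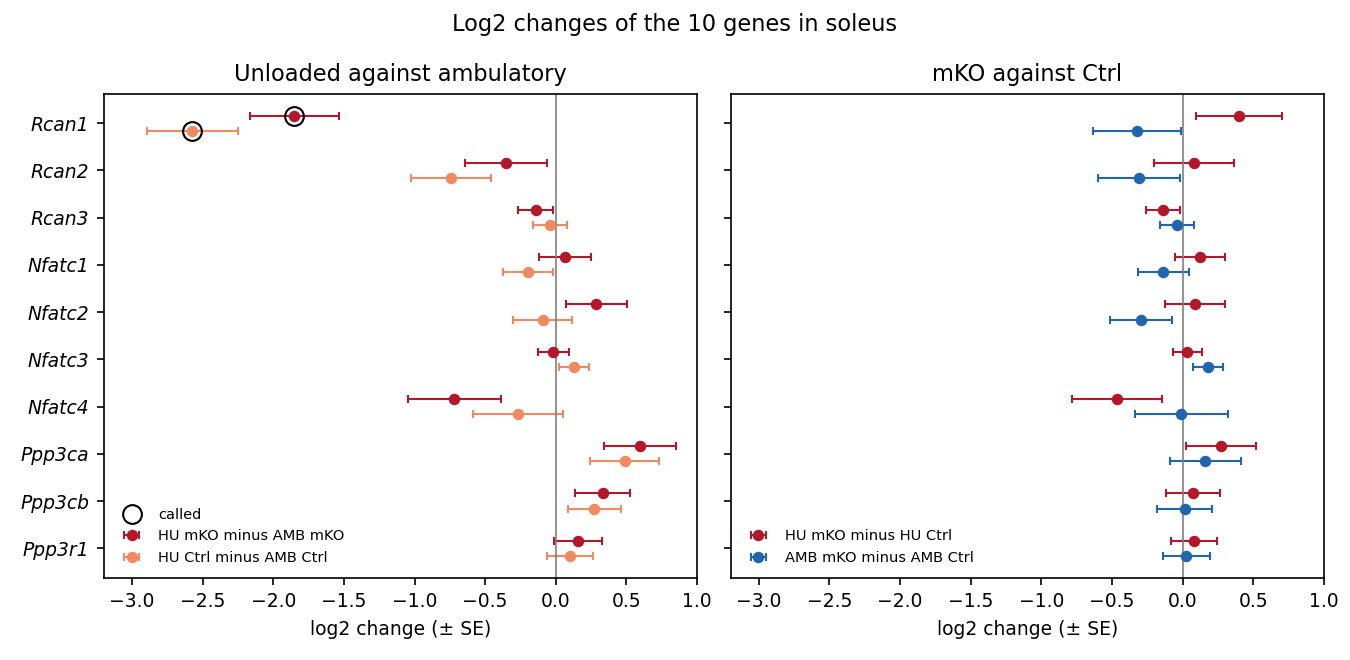
Log2 changes ± SE of the 10 genes from the edgeR fit, for HU against AMB in mKO and in Ctrl mice (left) and for mKO against Ctrl in HU and in AMB mice (right). The ringed points passed the adjusted p threshold of 0.05; both are Rcan1, at -1.85 in mKO and -2.57 in Ctrl mice.

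The sex term of the same model is a comparison that the choice of genes did not use. Over all groups, 0 of the 10 members were called by edgeR, or by DESeq2, between the 15 male and the 15 female mice, where 0.213% of all genes were, and 0 members had an unadjusted p below 0.05, where 12.6% of all genes did. Rcan1 averaged 174 ± 121 CPM in male and 142 ± 124 CPM in female mice, and its log2 difference, male minus female, was 0.25 ± 0.22. Rcan2 differed by 0.25 ± 0.21, Nfatc1 by 0.19 ± 0.13 and Ppp3ca by 0.01 ± 0.18. Part of this rested on AMB mKO replicate 2, a female. Without it the median difference of the 3 RCAN genes was 0.08 in place of 0.25. That of the 4 NFATc genes was 0.09 in place of 0.19. The sexes were unevenly spread over the groups, and the model held the group when it estimated these differences.

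Per kilobase of merged exons (GENCODE annotation of GRCm38, so that lengths are approximate), the order of the levels differed between loading states. In AMB Ctrl soleus Rcan1 was highest at 90.1 ± 21.9 CPM per kb, followed by Rcan2 at 28.4 ± 5.28 and Ppp3r1 at 16.2 ± 1.54 CPM per kb. Ppp3cb at 10.6 ± 1.58, Ppp3ca at 10.03 ± 1.56 and Nfatc1 at 9.19 ± 0.83 CPM per kb came next and lay within each other's spread. Nfatc2 at 6.63 ± 0.88, Nfatc3 at 4.31 ± 0.41, Nfatc4 at 2.32 ± 0.81 and Rcan3 at 1.93 ± 0.30 CPM per kb were lowest, the last pair within each other's spread.

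In HU Ctrl soleus, Rcan2 at 17.5 ± 3.64, Ppp3r1 at 17.3 ± 3.44, Rcan1 at 15.8 ± 4.23, Ppp3ca at 14.1 ± 5.22 and Ppp3cb at 13.0 ± 2.55 CPM per kb were neighbours that did not differ beyond their spread. In HU mKO soleus Rcan1 was again the highest of the 10, at 19.9 ± 7.16 CPM per kb, but within the spread of Ppp3r1 at 18.5 ± 4.31, Rcan2 at 17.7 ± 5.71, Ppp3ca at 17.0 ± 6.53 and Ppp3cb at 13.4 ± 3.13 CPM per kb. In AMB mKO soleus Rcan1 stood at 77.9 ± 34.7 and Rcan2 at 24.5 ± 10.4 CPM per kb, and without replicate 2 they stood at 89.4 ± 18.2 and 28.1 ± 4.44 CPM per kb. Rcan1 thus stood clear of the other 9 genes in ambulatory muscle, while in unloaded muscle its level did not differ from those of Rcan2 and the subunits beyond their spread.

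Genes with a pattern over the 30 libraries most like that of Rcan1 were Otulin, a deubiquitinase of linear ubiquitin chains (r = 0.955 on log2 CPM), Adamtsl5, a secreted matrix protein (0.948), Bdh1, the mitochondrial 3-hydroxybutyrate dehydrogenase (0.936), Ssu2 (0.931) and Myh10, a nonmuscle myosin heavy chain (0.930). With group and sex fitted out and AMB mKO replicate 2 kept, the 5 correlations lay between 0.741 and 0.883. Without that library they lay between 0.924 and 0.952 over 29 libraries, with group and sex not fitted out. Correlations within groups without it were not computed. Adamtsl5 averaged 32.5 ± 6.52 CPM in HU mKO and 104 ± 55.4 CPM in AMB mKO soleus, and 38.5 ± 5.38 CPM in HU Ctrl and 122 ± 19.7 CPM in AMB Ctrl soleus. All 5 were called lower with unloading over both genotypes, with log2 changes between -2.74 for Bdh1 and -0.94 for Otulin; they were picked for likeness to a gene that differed with unloading, so this follows from the choice.

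The genes most like Rcan2 were Tpm2, for beta-tropomyosin (r = 0.969), Fndc5, the irisin precursor (0.968), E2f6 (0.965), Tuba8, an alpha-tubulin (0.965), and Lynx1 (0.960). Without AMB mKO replicate 2 they stayed between 0.912 and 0.949. Among those most like Nfatc2 were Tmem150c (0.844), Slco5a1 (0.842), Crhr2, a receptor for urocortins (0.839), and Asb18 (0.839). Without that library these 4 fell to between 0.554 and 0.598, so their likeness to Nfatc2 rested largely on it. Each search ran over 12394 genes with a mean of at least 1 CPM.

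The remaining genes of the pathway were read from lists of its known parts, over both genotypes. Of the other calcineurin and NFAT genes, 2 of 3 were tested. Nfat5, a relative of the NFATc genes that responds to osmotic stress and not to calcineurin, was called higher (log2 change 0.28 ± 0.10), and the catalytic subunit gene Ppp3cc, at 0.16 ± 0.11, was not called. Without the 3 adipocyte-rich libraries Nfat5 was not called either. Ppp3r2 had at most 3 counts in any library.

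Of 15 genes for proteins that bind or anchor calcineurin, 2 were called higher and 6 lower with unloading, where 14.2% of all genes tested were called higher and 14.3% lower. The median log2 change was -0.37 over the 15 and -0.01 over all genes. Myoz1, for the calcineurin-binding Z-disc protein of fast fibres, averaged 697 ± 290 CPM in HU mKO and 391 ± 179 CPM in AMB mKO soleus, and 571 ± 170 CPM in HU Ctrl and 313 ± 164 CPM in AMB Ctrl soleus (log2 change 0.93 ± 0.24, adjusted p = 0.00505). Akap1, for a mitochondrial anchoring protein, averaged 73.5 ± 14.1 CPM in HU mKO and 134 ± 49.9 CPM in AMB mKO soleus, and 75.3 ± 16.2 CPM in HU Ctrl and 143 ± 30.1 CPM in AMB Ctrl soleus (-0.89 ± 0.15, adjusted p = 5.51e-05). Lmcd1, a LIM protein known to activate calcineurin in mouse heart, changed by -0.94 ± 0.22 (adjusted p = 0.00232). Of the calmodulin genes, Calm2 was called higher (0.48 ± 0.11) and Calm3 lower (-0.37 ± 0.12), and both encode the same protein. Fhl2, Cib1 and Fkbp1a were also called lower, and Cib1 and Fkbp1a were not when AMB mKO replicate 2 was left out, while Myoz2 (-0.67) and Akap6 (-0.55) then were.

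Of 15 genes for NFAT kinases, nuclear export and the Homer scaffolds, of which some compete with calcineurin for NFAT in T cells, 2 were called higher and 2 lower, and the median log2 change was -0.02. Among all genes tested 14.2% were called higher and 14.3% lower, so both counts lay near the share over all genes. Homer2, which promotes calcineurin signalling in mouse muscle cells, averaged 132 ± 44.3 CPM in HU mKO and 300 ± 132 CPM in AMB mKO soleus, and 134 ± 39.7 CPM in HU Ctrl and 327 ± 77.1 CPM in AMB Ctrl soleus (-1.24 ± 0.26, adjusted p = 0.000755). The casein kinase genes Csnk1a1 (0.43 ± 0.11) and Csnk1e (0.24 ± 0.07) were higher, and the exportin gene Xpo1 was lower (-0.22 ± 0.08). The glycogen synthase kinase genes Gsk3a and Gsk3b and the DYRK genes Dyrk1a, Dyrk1b and Dyrk2 were not called. Without AMB mKO replicate 2 the count was 2 higher and 4 lower, Gsk3b and Homer1 being added.

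Of 10 genes for store-operated and TRPC calcium entry, 2 were called higher, the calcium sensor Stim2 (0.29 ± 0.07) and the channel Trpc4 (0.80 ± 0.27, at a mean of 1.04 CPM or less in each group), and 2 lower, the channels Orai3 (-0.39 ± 0.08) and Orai2 (-0.63 ± 0.17). The median of the 10 was 0.11, and among all genes tested 14.2% were called higher and 14.3% lower. Without AMB mKO replicate 2, Trpc1 (0.37) and Orai1 (-0.45) were called too.

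Of 10 genes reported as calcineurin- or NFAT-responsive in muscle or heart, 8 were tested, and over both genotypes 1 was called higher, Mef2a (0.38 ± 0.12), and 1 lower, the slow troponin gene Tnni1 (-0.94 ± 0.32). The median log2 change of the 8 was 0.01, and -0.01 over all genes. The share called over all genes tested, for these and the marker counts that follow, was 14.2% higher and 14.3% lower with all 30 libraries. For the fit without AMB mKO replicate 2 that share is not given here. The counts without it, here and in the lists above, are therefore not read as particular to the listed genes. The slow myosin gene Myh7 (-0.50 ± 0.35) and the myoglobin gene Mb (-0.43 ± 0.27) were called lower when AMB mKO replicate 2 was left out (-0.64 and -0.55). Tnni1 and Myh7 are also among the 10 slow fibre markers, of which 4 were called lower with that library and 7 without it. Of the 11 fast fibre markers, 5 were called higher in either case, and without that library 1 was called lower, the calsequestrin gene Casq1 (-0.48). Of the 6 tenocyte markers, 1 was called lower in either case.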

How the data were processed

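Directional RNA libraries from 30 mouse soleus muscles were read on an Illumina NovaSeq, per the labels' protocols. The deposited table holds the authors' unnormalised counts for each Ensembl identifier. The submitters' processing notes name cutadapt 1.16, STAR 2.7.9a, featureCounts 1.6.3, DESeq2 1.34.0 and the build GRCm39; an annotation release and a strand setting for the counting were absent from the sources used here. Protocol texts on people and myotubes did not match mouse soleus and were not used.

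Of 56980 identifiers, 52073 had a symbol. Counts were fitted with edgeR 4.0.16 in R 4.3.3 (TMM, filterByExpr, robust quasi-likelihood) on all 30 libraries with group and sex in the model; the common biological coefficient of variation was 33.1%. P-values were adjusted by Benjamini-Hochberg over the 16932 genes tested, and a gene was called at an adjusted p below 0.05. SEs were derived from the log2 change and its F statistic. CPM are TMM-normalised; correlations used log2 CPM with a prior count of 2. The fit was also run on simulated counts with planted loading changes. Those counts held no library apart like AMB mKO replicate 2 and no letter effect, so the run does not bear on either. Nothing in the labels says how litters or cages were shared, so p-values measure the spread between these mice.

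The members and lists were chosen with earlier results of these data known. Named were the 10 members, the targeted genes, up to 4 called genes per pathway list with the smallest p plus others needed to say what did not pass, and the 5 genes most like Rcan1, Rcan2 and Nfatc2. Other called list genes, and those lost or gained without AMB mKO replicate 2, were named after their values were seen. A few genes that this rule takes in are not reported here. Alternatives were other size factors, DESeq2 1.42.0, other filters and covariates, and leaving out libraries; 2 were added after seeing the data.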

Additional observations from a re-analysis of the deposited data

Results flagged for a closer look

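In 6 of the 40 combinations of a member and a group, the highest or lowest mouse was farther from the next than Dixon's 95% critical value allows; chance flags about 1 in 20 groups. Of these, 3 are AMB mKO replicate 2, the library low in slow fibre transcripts. It had 12.7 CPM of Rcan2, where the next AMB mKO mouse had 93.8 CPM. It had 18.1 CPM of Nfatc2, where the next had 53.1 CPM. It had 45.0 CPM of Ppp3ca, where the next had 106 CPM. In the HU mKO group, replicate 7 had 113 CPM of Rcan1, where the next mouse had 66.1 CPM; its slow fibre sum, 37969 CPM, was the highest of the unloaded mice. The HU mKO replicate 6 had 69.2 CPM of Nfatc3, where the next had 59.3 CPM. The AMB mKO replicate 4 had 36.6 CPM of Nfatc3, where the next had 52.1 CPM.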

How the results depend on the processing

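Rcan1 was called lower with unloading in mKO mice, in Ctrl mice and over both genotypes under every alternative run, with log2 changes from -2.11 to -1.77, from -2.63 to -2.51 and from -2.33 to -2.20. Ppp3ca over both genotypes was called under all 10 of its alternatives (0.46 to 0.55). Rcan2 over both genotypes was called under 10 of 11. No member was called between genotypes, between sexes or in the interaction under any alternative.

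In mKO mice, 2 members were called with unloading with the title letter in the model or without AMB mKO replicate 2, and 3 with both, in place of 1. In Ctrl mice, 2 were called with the letter, in a fit of the compared groups alone, without AMB mKO replicate 2 or without the 3 adipocyte-rich libraries, and 3 without AMB mKO replicate 2 and with the letter, in place of 1. The added members were Rcan2 and Ppp3ca. In the main fit 10.1% of all genes tested were called in mKO mice and 11.1% in Ctrl mice. As given below, the count over all genes rose too in mKO mice with the letter. In Ctrl mice it rose with the compared groups alone, and without AMB mKO replicate 2 and with the letter. For the other settings named, the count over all genes is not given here. The added calls are not read as particular to the members under any of these settings.

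Directions turned only in changes that no fit called, and the cause was not tested. For mKO against Ctrl in AMB mice, Nfatc4 came to 0.070 without sex in the model, 0.11 with the letter, 0.20 without AMB mKO replicate 2 and with the letter, and -0.15 to 0.036 without AMB Ctrl replicate 1 or AMB mKO replicate 2. With the letter Ppp3ca came to -0.047, Ppp3cb to -0.16 and Ppp3r1 to -0.10, and with the compared groups alone Ppp3cb came to -0.030 and Ppp3r1 to -0.017. In HU mice Rcan2 came to -0.0050 without AMB mKO replicate 2 and with the letter, and to between -0.051 and 0.087 without 1 library. With unloading in mKO mice, Nfatc3 came to 0.014 without sex, and Nfatc1 to between -0.050 and 0.065 without 1 library. In the interaction, leaving out 1 library gave Ppp3ca -0.097 to 0.099, Ppp3cb -0.13 to 0.028 and Ppp3r1 -0.084 to 0.034, and Ppp3cb came to -0.016 without sex and -0.021 without the 3 adipocyte-rich libraries. For male minus female, leaving out 1 library gave Rcan3 -0.0027 to 0.012 and Ppp3ca -0.10 to 0.0079. Without the 3 adipocyte-rich libraries Rcan3 came to 0.069, Nfatc2 to -0.0076, Ppp3ca to -0.17 and Ppp3cb to -0.028. With the letter Nfatc4 came to -0.00091 and Ppp3r1 to 0.045, and Nfatc4 to -0.060 without AMB mKO replicate 2 as well.

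Over all genes, unloading in mKO mice called 1702 genes, against 987 with no filter, 608 with the compared groups alone and 2591 with the letter. In Ctrl mice it called 1882, against 1225, 3098 with the compared groups alone and 3355 without AMB mKO replicate 2 and with the letter. For mKO against Ctrl in AMB mice 3 became 9 with DESeq2 and 1 with the compared groups alone, and for sex 36 became 129 with DESeq2 and 55 with the letter. No paired analysis was possible because the mice carry no replicate number shared between groups. Counts of Nfatc4 (54 to 376 per library) and Rcan3 (103 to 269) are the lowest of the members.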
